A study of Homo sapiens with 12 samples.

Results

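The comparison set line 2 against line 1 of HKDC1-edited PLC/PRF/5 cells, a human hepatoma cell line that grows as epithelial cells. Its members were chosen by title: the 4 libraries whose titles name KO1 (2 labelled knockout and 2 labelled rescue) and the 4 whose titles name KO2 (2 and 2), which makes 8 of the 12 libraries of the series. The 4 remaining libraries are control cells labelled wild type, which entered no test here and are given as values. HKDC1 encodes a hexokinase domain protein of the family that phosphorylates glucose. All 8 libraries carry the HKDC1 knockout label, and the rescue libraries also carry HKDC1 put back. The labels do not say whether a line is a single clone or a guide, how the edit or the rescue was made, at which oxygen level the cells grew, or whether libraries of 1 group came from separate cultures. So the spread behind the p-values is that between these samples alone and can be technical.

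Cell lines derived from 1 parent can drift apart in gene expression as they are grown and selected. Hepatoma cells keep part of the hepatocyte program, which hepatocytes use to make plasma proteins and lipoproteins: APOB is the structural protein of very low density lipoprotein, and HNF4A and the CEBP factors drive many secreted protein genes. In the results, a fold change is line 2 minus line 1 on the log2 scale, so a positive value means a higher level in line 2.

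Levels are CPM, a gene's reads scaled to the size of the library after normalisation by TMM (trimmed mean of M values). Called genes are those with an adjusted p under 0.05 in edgeR's quasi-likelihood test with knockout or rescue state as a covariate, with Benjamini-Hochberg adjustment over all genes tested. Reads on genes ran from 36075411 to 68040103 in the 8 libraries, and 3 counts, read as the floor of detection, correspond to 0.0407 to 0.0848 CPM. Library 2 of the line 2 rescue stood apart: it had the highest share of reads not assigned to a gene among the 12 libraries (31.5%, against 23.2% in the lowest), and a chi-square per gene of 152.5 against its partner, where the other 3 pairs of libraries were at 50.3 to 56.8. Counts of list members are therefore also given without it where they move by over 1.5 times. The genotype field contradicts the title in 4 of the 8 libraries (KO1 and KO2 number 2, and both rescue groups number 1), while line membership is the same under both labels. In the 8 libraries the field gives knockout for every number 1 and rescue for every number 2. A fit with the number as a block therefore also has the state by this field as a term, and the number and the field cannot be told apart.

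HKDC1 (ENSG00000156510.11, chromosome 10) was read first as a check of the labels. In the libraries labelled knockout, line 1 had 153 and 146 CPM and line 2 had 91.1 and 49.1 CPM. In the rescue libraries line 1 had 1236 and 1543 CPM and line 2 had 506 and 623 CPM, and the controls were between 124 and 184 CPM. So its mRNA was below every control only in line 2, the libraries labelled knockout of line 1 were at control level, and the rescue libraries of both lines were above all controls. Within each state line 2 was below line 1 (log2 fold change -1.21, SE 0.19, adjusted p = 0.00123). HKDC1 was thus higher in every library titled rescue than in every library titled knockout, in both lines. Under the genotype field each state would hold libraries of both levels. The labels do not say which part of the gene was edited, and an edited gene can still be transcribed, so the state is written as the titles label it.

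The cell type label was compared with hepatocyte and epithelial markers. KRT8 and KRT18, the keratins of simple epithelium, were abundant in both lines, at 1148 to 2192 CPM for KRT8 and 1117 to 2169 CPM for KRT18, and neither was called. HNF4A, a transcription factor that maintains hepatocyte identity, was at 142 to 155 CPM in line 1 and 156 to 208 CPM in line 2. AFP, the fetal liver protein, was at 7.28 to 74.5 CPM and 15.8 to 52.0 CPM and was not called. Albumin (ALB) was low in both, at 24.8 to 63.0 CPM in line 1 and 15.8 to 25.1 CPM in line 2, beside 912 and 826 CPM in controls 1 and 2 and 23.1 and 28.3 CPM in controls 3 and 4. The controls thus fell into 2 pairs that differed more from each other in ALB than the lines did.

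The lines differed at 5961 of 19766 genes tested, which is 30.2%. Of these, 3085 were higher in line 2 (15.6% of genes tested) and 2876 were lower (14.6%), and the median log2 fold change over all genes tested was 0.014. At least a doubling was seen for 1692 of the higher genes and at least a halving for 962 of the lower ones, and 374 and 207 genes passed 3 on the log2 scale. The 4 libraries of a line did not overlap the 4 of the other at 5300 of the called genes, and at 6368 of all 19766 genes tested. All 4 pairs of libraries with the same state and number had the sign of the fold change at 5912 called genes (99.2%). The calls rest on these same libraries, so both counts describe the calls and are no separate support for them. Protein coding genes were called in 34.2% of 14033, long intergenic RNAs in 28.1% of 1240 and antisense RNAs in 20.2% of 1354. In a principal component analysis of the 2000 most variable genes, the first component held 79.9% of the variance and separated the lines, with line 1 between -66.9 and -49.4 and line 2 between 53.8 and 64.1.

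Several of the genes with the largest differences were at or near the floor in 1 line. The promoters of 4 of them are shown so that the sequence around the start of such a gene can be seen. They were taken from the RefSeq promoter table (GRCh38.p14, 250 bases before to 50 bases after the start). Among the genes whose entry was used, they are the 2 largest falls and the 2 largest rises with 1 start. They are DIAPH2 (chrX:96684592-96684891, + strand), FAM50B (chr6:3849123-3849422, + strand), KCNK1 (chr1:233613856-233614155, + strand) and BEND4 (chr4:42152606-42152905, - strand). Capitals mark CG, the dinucleotide at which mammalian DNA is methylated, which reads the same on both strands.
DIAPH2: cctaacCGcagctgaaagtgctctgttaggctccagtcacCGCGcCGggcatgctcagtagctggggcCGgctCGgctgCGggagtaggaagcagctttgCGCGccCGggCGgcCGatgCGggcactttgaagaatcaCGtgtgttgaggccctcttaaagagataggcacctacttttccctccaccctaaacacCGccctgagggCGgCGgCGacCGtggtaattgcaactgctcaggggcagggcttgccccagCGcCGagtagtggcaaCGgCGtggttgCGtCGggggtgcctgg
FAM50B: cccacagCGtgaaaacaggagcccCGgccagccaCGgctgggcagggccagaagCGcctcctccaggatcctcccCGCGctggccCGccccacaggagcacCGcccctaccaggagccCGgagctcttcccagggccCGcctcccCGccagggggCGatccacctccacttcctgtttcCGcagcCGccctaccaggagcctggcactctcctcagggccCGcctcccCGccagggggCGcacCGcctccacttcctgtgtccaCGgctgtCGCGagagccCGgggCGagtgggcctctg
KCNK1: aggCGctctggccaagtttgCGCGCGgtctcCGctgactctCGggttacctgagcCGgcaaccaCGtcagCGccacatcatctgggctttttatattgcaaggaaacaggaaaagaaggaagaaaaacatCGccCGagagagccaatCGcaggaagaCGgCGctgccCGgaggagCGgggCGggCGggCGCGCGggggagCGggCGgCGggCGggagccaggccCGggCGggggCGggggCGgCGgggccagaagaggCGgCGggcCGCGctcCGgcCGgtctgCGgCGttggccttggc
BEND4: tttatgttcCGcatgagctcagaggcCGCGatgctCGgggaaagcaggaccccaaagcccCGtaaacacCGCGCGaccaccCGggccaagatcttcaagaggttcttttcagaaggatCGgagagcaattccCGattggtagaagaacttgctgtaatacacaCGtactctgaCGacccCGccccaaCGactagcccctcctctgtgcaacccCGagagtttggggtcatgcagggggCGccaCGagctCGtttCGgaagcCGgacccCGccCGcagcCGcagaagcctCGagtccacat
The 4 windows of 300 bases held 25, 23, 38 and 25 CG, beside a median of 14 over the 35116 promoters of the table. A count at least as high was found in 32.0%, 35.8%, 9.91% and 32.0% of all promoters. Of the 24 genes with the largest differences, 15 had an entry that was used. ZNF704, the largest rise, and COL14A1 were not among the 15, so the counts that follow do not cover them. The start richest in CG was at or above the median of all promoters in 13 of the 15. They were 6 of 8 genes lower in line 2 and 7 of 7 genes higher. Taking the richest start favours genes with several starts. The poorest start was below the median at IRF5 (5 CG), PROM1 (6) and SLC16A7 (1), and above it at EPHA5 (19) and SIM1 (25). At CHODL all starts were below it. The richest start was not counted over all genes, so the 13 cannot be read as an excess. Methylation was not measured, so these are descriptions of sequence only.

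Apolipoprotein B was among the 12 largest falls in line 2. APOB (chromosome 2) was at 10394, 21509, 13626 and 27603 CPM in line 1, in the order knockout 1, knockout 2, rescue 1 and rescue 2 that is used for all 4-library series here. It was at 20.1, 47.7, 38.7 and 115 CPM in line 2 and at 4828 to 6918 CPM in the controls. All 4 controls lay between the lines, and APOB was 330.5 times higher in line 1 by the ratio of means (log2 fold change -8.49, SE 0.60, adjusted p = 1.35e-05). Within each line and state, number 2 was above number 1.

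DIAPH2 (chromosome X) encodes a formin, a protein that nucleates and elongates actin filaments. Line 1 had 35.6, 37.0, 47.1 and 51.7 CPM, and line 2 had 0, 0.108, 0.0561 and 0.118 CPM, or 0 to 8 reads a library. The controls were at 33.8 to 35.5 CPM, close to line 1, and the log2 fold change was -9.12 (SE 0.32, adjusted p = 4.54e-07). PLCB1 on chromosome 20, a phospholipase C that acts downstream of G proteins, showed the same order: 26.1 to 55.3 CPM in line 1, 0.367 to 0.719 CPM in line 2 and 35.8 to 53.5 CPM in the controls (log2 fold change -6.34).

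FAM50B (chromosome 6), a gene known to be imprinted in humans, was at 6.63, 5.78, 5.70 and 5.17 CPM in line 1. In line 2 it was at the floor in all 4 libraries, so it was at least 118.9-fold higher in line 1 (adjusted p = 9.47e-07). Controls 1 and 2 were also at or below the floor (0.0540 and 0.0293 CPM) and controls 3 and 4 were at 1.97 and 1.96 CPM. PTGR1, an enzyme that reduces leukotriene B4 and lipid aldehydes, and IRF5, an interferon regulatory factor, had the same pattern of controls. PTGR1 was at 17.7, 15.6, 5.60 and 7.57 CPM in line 1 and at most 0.0588 CPM in line 2, and IRF5 at 3.59 to 6.04 CPM and at most 0.0588 CPM.

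The other falls were genes of the cell surface, the cytoskeleton and the extracellular space. BASP1, a membrane-bound growth cone protein, was at 24.2 to 46.8 CPM in line 1 and 0.221 to 0.529 CPM in line 2, and the controls were split the other way from FAM50B, with 81.3 and 79.3 CPM in controls 1 and 2 and 1.73 and 2.01 CPM in controls 3 and 4. PROM1 (CD133), a membrane glycoprotein widely used as a progenitor marker, was at 26.2, 24.6, 49.6 and 44.9 CPM in line 1 and 0.374 to 0.559 CPM in line 2. CHODL, a C-type lectin-like membrane protein, was at 6.67 to 17.3 CPM in line 1 and at most 0.0588 CPM in line 2.

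COL11A1, a fibrillar collagen chain, was at 34.5 to 69.0 CPM in line 1, 0.486 to 0.898 CPM in line 2 and at most 5.19 CPM in the controls. For CHODL and COL11A1, line 1 was thus above all 4 controls as well as above line 2. Over the falls described, the log2 fold changes ran from -9.12 to -6.07. The largest falls and rises were picked among genes whose lines did not overlap, so that separation is not a finding about them.

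ZNF704 (chromosome 8), a zinc finger gene, had the largest rise. Line 2 had 92.8, 91.9, 118 and 113 CPM, and line 1 had 0.0797, 0.0466, 0.0390 and 0.0283 CPM, or 5, 2, 2 and 1 reads. The controls were at 36.5 to 44.9 CPM, and the log2 fold change was 10.88 (SE 0.20, adjusted p = 7.20e-09). Line 1 was the group that lay apart from the rest at this gene, as line 2 was at DIAPH2.

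Ion channels made up 3 of the 12 rises. KCNK1, a background K+ channel, was at 15.8, 15.7, 13.4 and 13.9 CPM in line 2 and at the floor in line 1, at least 225.2-fold higher (adjusted p = 2.39e-07), with controls at 1.12 to 2.71 CPM. KCNH7, a voltage-gated K+ channel of the ether-a-go-go family, was at 4.47 to 6.56 CPM in line 2 and at the floor in line 1, at least 87.9-fold higher. CACNA1C, the pore subunit of an L-type calcium channel, was at 6.02 to 10.4 CPM in line 2 and 0.0283 to 0.187 CPM in line 1.

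Receptors, adhesion proteins and a transporter formed the next group of rises. CLMP, a tight junction adhesion molecule, was at 19.9 to 28.3 CPM in line 2, at most 0.0957 CPM in line 1 and 0.414 to 1.09 CPM in the controls. EPHA5, an ephrin receptor kinase, was at 6.82 to 11.7 CPM in line 2 and at the floor in line 1, at least 137.4-fold higher. OLR1, a receptor for oxidised LDL, was at 15.9, 8.15, 25.2 and 6.72 CPM in line 2 and at most 0.170 CPM in line 1, with a wide spread within line 2 (SD 8.49 CPM, n = 4).

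SLC16A7, a monocarboxylate transporter for pyruvate and lactate, was at 30.6, 32.8, 39.6 and 52.9 CPM in line 2, 0.215 to 0.311 CPM in line 1 and 4.99 to 6.06 CPM in the controls. COL14A1, a collagen associated with fibrils, was at 5.5 to 14.4 CPM in line 2 and at most 0.137 CPM in line 1. RASEF, a Rab family GTPase with EF-hand domains, was at 35.6 to 53.8 CPM in line 2 and at 0.273 to 0.750 CPM in line 1, with controls at 0.162 to 0.308 CPM. At RASEF line 1 and the controls were at a like level and line 2 stood apart from both.

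The remaining 2 rises encode nuclear proteins. BEND4, a BEN domain protein, was at 25.2, 28.6, 19.8 and 27 CPM in line 2, 0.0565 to 0.271 CPM in line 1 and 1.19 to 5.5 CPM in the controls. SIM1, a bHLH-PAS transcription factor of the hypothalamus and kidney, was at 2.92 to 9 CPM in line 2 and at most 0.0933 CPM in line 1. The log2 fold changes of the 12 rises ran from 6.50 to 10.88.

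**Figure D1:**
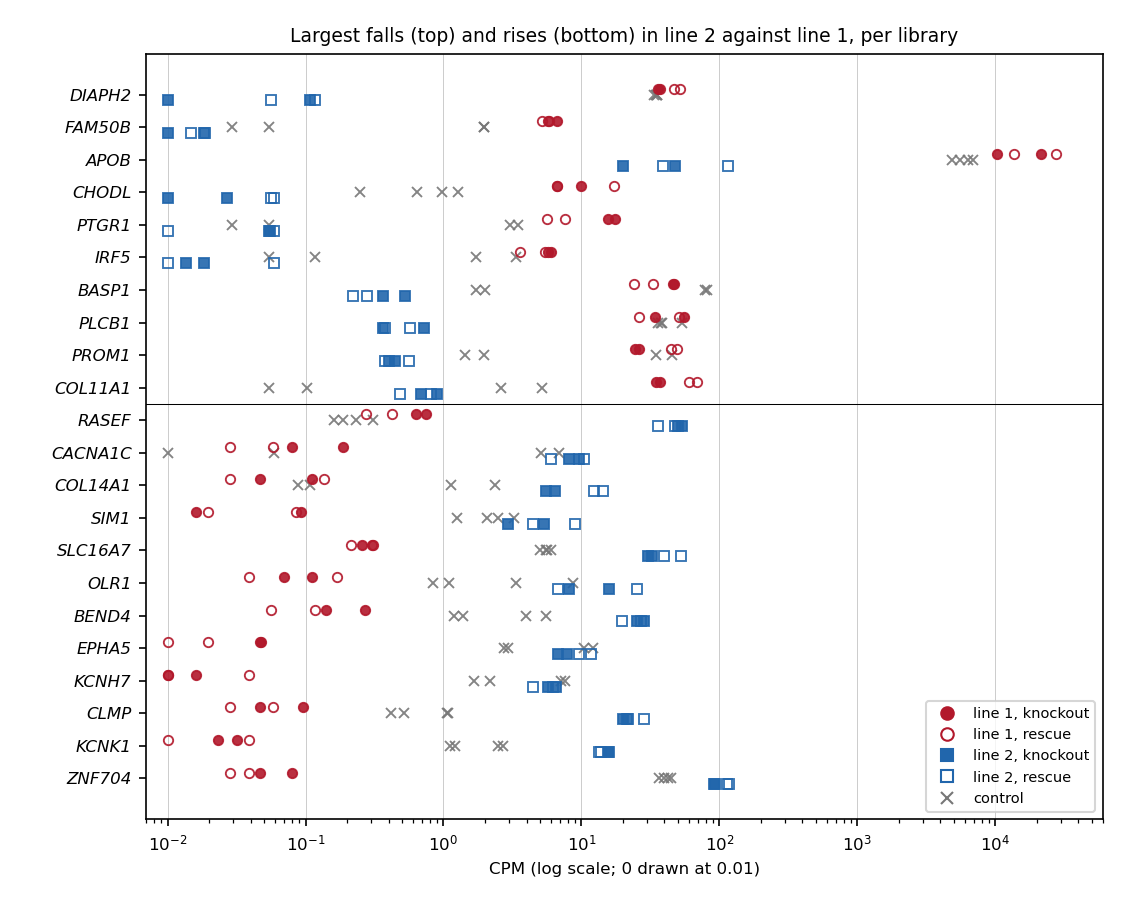
CPM on a log scale (0 drawn at 0.01) of the largest falls and rises in line 2 that the text describes, 1 point per library: circles for line 1, squares for line 2, filled for knockout, open for rescue, crosses for the 4 controls. The genes were picked for lines that do not overlap. The controls sit with line 1 at DIAPH2 (33.8 to 35.5 CPM), between the lines at APOB (4828 to 6918 CPM), and in 2 separate pairs at FAM50B and BASP1.

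The chromosomal neighbours of the 24 genes with the largest differences were read as the 5 nearest protein coding genes tested on each side. The median log2 fold change of these 10 neighbours ran from -0.84 to 0.96. Around the 12 rises, 46 of 120 neighbours were called higher (38.3%, beside 17.4% of all protein coding genes tested), with 2 to 8 of 10 per gene. Of these, 8 were around KCNK1 and 7 around ZNF704 on chromosome 8, where 42.4% of genes tested were higher. Around the 12 falls, 31 of 120 were called lower (25.8%, beside 16.9%), with 0 (next to APOB) to 8 of 10 per gene. The 8 were around IRF5, in a lower run of chromosome 7 (described with the chromosomes). A further 7 were around CHODL on chromosome 21, where 39.7% of genes tested were lower. No other fall had more than 3, so the share of 25.8% does not describe the falls in general. The neighbours named here were chosen after their values were seen. PAG1, next to ZNF704, was at 22.6 to 29.7 CPM in line 2 and 0.141 to 0.513 CPM in line 1 (log2 fold change 6.22). SLC35F3, next to KCNK1, was at 2.02 to 3.35 CPM in line 2 and had a count in 1 of 4 libraries of line 1 (log2 fold change 6.49).

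TMEM52B, next to OLR1, rose from the floor in line 1 to 0.788 to 1.61 CPM in line 2. HAS2, a hyaluronan synthase among the 5 tested genes to 1 side of COL14A1, was at 2.57 to 5.01 CPM in line 2 and at the floor in line 1, at least 55-fold higher, and at most 0.0339 CPM in the controls. Smaller differences in the same direction were found for IGFBP7 beside EPHA5 (4.20), FRMD3 beside RASEF (2.76) and DCP1B beside CACNA1C (2.92). The opposite also occurred: CDH6, among the 5 genes to 1 side of BASP1, was higher in line 2 by 6.13 where BASP1 was lower.

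Departures from the controls were found in both lines. Of 1522 genes that were at least doubled in line 2 with lines that did not overlap, all 4 controls were nearer line 2 at 648 and nearer line 1 at 247, and the controls were split by pair at 140 and 124. Of 875 genes at least halved in line 2, all 4 controls were nearer line 2 at 283 and nearer line 1 at 197, and split by pair at 85 and 109. All 4 controls lay within the range of the 8 edited libraries at 846 and 517 of these genes. The controls were not tested against the lines here.

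Hepatocyte secreted proteins were lower in line 2. Of 21 members measured, 13 were called lower (61.9%, beside 14.6% of all genes tested) and 1 higher (4.76%, beside 15.6%), with a median of -0.72. These 2 shares over all genes tested are the background of every list count that follows. The median difference of the 4 pairs of libraries ran from -1.07 to -0.27. RBP4, the plasma carrier of retinol, was at 85.6, 94.8, 147 and 212 CPM in line 1 and 5.52, 6.68, 11 and 18.2 CPM in line 2 (log2 fold change -3.77, adjusted p = 2.66e-06). ORM1, an acute phase glycoprotein, was at 38.3 to 57.7 CPM in line 1 and 0.747 to 2.71 CPM in line 2.

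Fibrinogen, whose 3 chains assemble the clot protein, was lower at every chain: FGB by a log2 fold change of -2.04, FGG by -1.53 and FGA by -1.05. FGA was at 1892 to 2563 CPM in line 1 and 501 to 1526 CPM in line 2, so it stayed a highly expressed gene in both. F2 (prothrombin) fell from 113 to 238 CPM in line 1 to 23.7 to 49.5 CPM in line 2. The falls of ALB (-0.93), TF (-0.72), SERPINA1 (-0.49) and C3 (-0.40), which encode albumin, transferrin, alpha-1 antitrypsin and complement C3, were smaller. The call was lost in 8 of 21 alternatives for TF and for SERPINA1 and in 10 of 21 for C3. The exception was TTR, the thyroxine carrier, which was higher in line 2 by 3.16 but low in both, at 0.456 to 1.03 CPM in line 2, at most 0.160 CPM in line 1 and up to 34.3 CPM in the controls.

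Other apolipoprotein and lipoprotein assembly genes mostly moved little beside APOB. Of 16 members 3 were lower (among them APOB, and APOE at -0.34) and 1 higher (LIPC, hepatic lipase, at 1.43). The call of APOE was lost in 10 of 21 alternatives. These counts became 6 lower and 3 higher without library 2 of the line 2 rescue, and 8 lower and 2 higher with replicate number as a block. APOA1, the main protein of high density lipoprotein, was at 4.17 to 7.40 CPM in line 1 and 5.06 to 9.22 CPM in line 2 and was not called (adjusted p = 0.283). MTTP, which loads lipid onto APOB, had overlapping levels of 32.4 to 119 CPM and 52.1 to 72.0 CPM.

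Of 16 hepatocyte transcription factors, 4 were lower and 2 higher (6 and 4 with the replicate block). CEBPA was at 1.12 to 1.47 CPM in line 1 and 0.330 to 0.897 CPM in line 2, and CEBPB at 79.3 to 123 CPM and 44.8 to 70.9 CPM (log2 fold changes -1.20 and -0.92). FOXA1, a pioneer factor of liver development, was lower by -0.69 on the log2 scale. HNF4A was higher in line 2 by 0.36 (adjusted p = 0.0383), a call that was lost in 10 of 21 alternatives. CREB3L3, a factor of the endoplasmic reticulum that acts on lipid genes, was at 10.1 to 20.5 CPM in line 1 and 36.8 to 70.7 CPM in line 2 (1.88). So the factors did not all move with the secreted proteins.

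Enzymes of xenobiotic metabolism went in both directions, 8 of 24 higher and 5 lower. SULT2A1, a sulfotransferase for steroids and bile acids, was at 3.49 to 9.77 CPM in line 2 and at most 0.280 CPM in line 1 (log2 fold change 5.28), and CYP2J2, an arachidonic acid epoxygenase, at 20.2 to 28.8 CPM and 0.507 to 1.96 CPM (4.44). CYP2E1, which oxidises ethanol, was higher by 2.94 with at most 2.13 CPM in line 2. ADH4, an alcohol dehydrogenase, was lower by -2.02 and UGT1A6, a glucuronosyltransferase that shares exons with other UGT1A genes so that its reads may be split between them, by -3.14. In the urea cycle and amino acid breakdown, 6 of 16 genes were lower and 2 higher. CPS1, the first enzyme of the urea cycle, was at 2634, 3488, 3763 and 4733 CPM in line 1 and 844, 913, 1222 and 1278 CPM in line 2 (-1.80, adjusted p = 2.33e-05). SDS, serine dehydratase, was lower by a log2 fold change of -2.18, although the lines overlapped at 28.0 to 139 CPM and 4.73 to 36.5 CPM.

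Glycolytic genes were called in both directions, with 5 of 24 higher and 7 lower. The glucose transporters moved in opposite ways. SLC2A2, the low affinity transporter of hepatocytes, was at 57.9, 67.9, 96.7 and 96.5 CPM in line 1 and 8.93, 9.63, 8.71 and 6.56 CPM in line 2 (log2 fold change -3.22, adjusted p = 7.00e-06). SLC2A3, a high affinity transporter, was at 41.4, 40.09, 39.99 and 31.6 CPM in line 1 and 604, 505, 753 and 493 CPM in line 2 (3.93, adjusted p = 1.61e-06). The controls were at 54.5 to 75.7 CPM for SLC2A2, near line 1, and 248 to 415 CPM for SLC2A3, nearer line 2.

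HK2, the hexokinase that tumours induce, was higher in line 2 within each state (27.1 and 40.5 against 15.7 and 22.4 CPM in knockout, 18.5 and 23.8 against 4.23 and 7.88 CPM in rescue, log2 fold change 1.29). PFKM, a phosphofructokinase, was lower by -1.10. Of 23 hypoxia response genes outside glycolysis 4 were higher and 3 lower. These counts were 6 and 6 with the replicate block, and 4 and 5 without library 2 of the line 2 rescue. PLOD2, a collagen lysyl hydroxylase, was at 3.57 to 7.58 CPM in line 1 and 44.0 to 79.6 CPM in line 2 (3.58), while BHLHE40, a clock-related repressor, was at 249 to 413 CPM and 85.2 to 144 CPM (-1.49).

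Lipid synthesis genes were mixed. In cholesterol synthesis 6 of 22 were higher and 3 lower. HMGCS1, which makes HMG-CoA, was at 163 to 192 CPM in line 1 and 370 to 510 CPM in line 2 (1.23), and FDFT1 (squalene synthase) was higher by 0.96. INSIG1, which retains the SREBP complex in the endoplasmic reticulum, was lower, at 256, 276, 370 and 443 CPM in line 1 and 118 to 124 CPM in line 2 (-1.47). In fatty acid synthesis and storage 5 of 15 were higher and 2 lower, among them ELOVL6 at 0.66 and FADS2, a desaturase, at -1.95. ELOVL5, an elongase of polyunsaturated fatty acids, was lower (-0.63).

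In fatty acid oxidation 4 of 16 were higher and 4 lower. FABP1, the fatty acid carrier of liver, was at 0.332 to 3.36 CPM in line 1 and 8.46 to 26.0 CPM in line 2 (3.73). PDK4, the kinase that closes the pyruvate dehydrogenase complex, was at 8.35 to 19.9 CPM and 73.8 to 108 CPM (2.87).

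The nuclear-encoded respiratory chain was lower in line 2 across most of its genes, by small amounts. Of 28 subunits 18 were called lower (64.3%), none higher, 26 had a negative fold change, and the median was -0.45. The median of the 4 library pairs ran from -0.68 to -0.32. NDUFS3, a core subunit of complex I, was at 77.1, 70.1, 81.4 and 70.8 CPM in line 1 and 40.05, 33.1, 42.2 and 31.0 CPM in line 2 (log2 fold change -1.05, adjusted p = 0.000296). UQCRC1 of complex III (-0.72), CYC1 (cytochrome c1, -0.61), ATP5PO of ATP synthase (-0.94) and NDUFA2 of complex I (-1.04) were lower with lines that did not overlap. NDUFB8 of complex I was at 7.07 to 9.63 CPM in line 1 and 9.63 to 12.1 CPM in line 2 and was not called. Of the 18 genes, 1 lay in a chromosome run that was lower as a whole (described with the chromosomes). This count depends on the median of 0.5 in size that names a run. NDUFA2, for example, lay in a chromosome 5 window with a median of -0.37, which was not named. Without library 2 of the line 2 rescue, 18 were lower and 2 higher.

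All 13 mitochondrially encoded genes had a negative fold change (median -0.31), and 4 were called lower, or 7 without library 2 of the line 2 rescue and 7 with the replicate block. MT-CYB was at 92.0 to 128 CPM in line 1 and 56.9 to 74.3 CPM in line 2 (-0.66, adjusted p = 0.00187), and MT-CO2 at 643 to 806 CPM and 451 to 555 CPM (-0.48). MT-ND5 was lower by a log2 fold change of -0.60. In the 4 pairs the median of the list was -0.55, -0.24, -0.29 and -0.071, the last in the pair with library 2 of the line 2 rescue.

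Cell cycle genes depended on that library. Of 27 members 5 were higher and none lower, with a median of 0.28, and 15 were higher without library 2 of the line 2 rescue. The median difference was 0.47 and 0.58 in the knockout pairs, 0.17 in the first rescue pair and -0.38 in the pair with that library. CCNE2, a cyclin of S phase entry, was at 8.71, 5.64, 9.72 and 6.47 CPM in line 1 and 21.1, 19.5, 20.1 and 11.9 CPM in line 2 (1.22, adjusted p = 0.00367). CDC6, a replication licensing factor, was at 108 to 137 CPM and 137 to 242 CPM, its lowest value in line 2 being in the same library, as was that of MCM7, a subunit of the replicative helicase (0.75). The call was lost in 5 of 21 alternatives for CDC6 and in 8 of 21 for MCM7. In the replication-dependent histones, 0 of 8 were called by edgeR (0 at an unadjusted p under 0.05) and by DESeq2, and 4 were higher without that library.

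Of 16 YAP/TAZ targets, genes that respond to cell density and tension, 8 were higher in line 2 (50%) and 1 was lower. The median was 0.44, and the pairs ran from 0.41 to 0.71. CRIM1, a membrane protein that binds BMP ligands, was at 42.7, 36.9, 31.1 and 26.1 CPM in line 1 and 285, 254, 340 and 282 CPM in line 2 (log2 fold change 3.09, adjusted p = 3.61e-06). ARHGEF17, a guanine nucleotide exchange factor, was at 1.3 to 2.19 CPM and 18.4 to 26.0 CPM (3.49), and AMOTL1, an angiomotin, was higher by 2.85. ANKRD1 (1.60) and CCN1 (0.98), both textbook targets of YAP, were higher too, while CCN2, the other classical target, was not called (0.012, adjusted p = 0.958) and TGFB2 was lower (-3.04).

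Among Wnt/beta-catenin targets 5 of 16 were higher and 1 lower. APCDD1, an inhibitor of Wnt receptors, was at 1.04 to 1.44 CPM in line 2 and at most 0.112 CPM in line 1 (4.09). SP5 was higher by 2.62, and LGR5, the R-spondin receptor, was at 3.22 to 7.07 CPM in line 1 and 12 to 25.6 CPM in line 2 (1.72). LEF1, a transcription factor that is itself a target of the pathway, was lower, at 11.9 to 26.0 CPM and 8.31 to 10.9 CPM (-1.01).

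Of 17 interferon-stimulated genes 7 were higher and 2 lower (41.2% and 11.8%), with a median of 0.80. The median difference was 0.21 and 0.51 in the knockout pairs and 0.93 and 0.92 in the rescue pairs. In the knockout libraries only, 3 were higher and 2 lower, and in the rescue libraries only, 6 and 1. OAS1, which senses double-stranded RNA, was at 20.9, 26.1, 8.18 and 10.3 CPM in line 1 and 40.9, 59.8, 36.2 and 44.6 CPM in line 2 (1.59). OAS3 (1.12), IFIT1 (1.46) and IFI6 (1.25) moved with it. Both myxovirus resistance genes went the other way: MX2 was at 5.77, 6.95, 1.48 and 1.10 CPM in line 1 and at most 0.250 CPM in line 2 (-4.09), and MX1 was lower by -1.33. NF-kB targets were lower at 6 of 17 and higher at 2 (11 and 3 with the replicate block), among them TNFAIP2 at 190 to 333 CPM and 76.7 to 112 CPM (-1.42) and the chemokine CXCL2 (-1.39), while NFKB2 was higher (0.62).

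Receptor tyrosine kinases and growth factor receptors were called in both directions, 7 of 21 higher and 5 lower. IGF1R, the receptor of insulin-like growth factors, was at 77.2, 92.4, 83.9 and 106 CPM in line 1 and 31.5, 35.3, 24.9 and 38.4 CPM in line 2 (-1.48, adjusted p = 0.000113). NTRK2, the receptor of brain-derived neurotrophic factor, was at 0.761 to 1.70 CPM in line 1 and at most 0.0883 CPM in line 2 (-4.58). FGFR2 (1.84) and ROR1 (1.12) were higher.

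Biliary and progenitor markers were split, 4 of 14 higher and 4 lower. CFTR, the chloride channel of bile duct cells, was at 308, 283, 489 and 486 CPM in line 1 and 26.9, 21.1, 49.0 and 30.2 CPM in line 2 (-3.64, adjusted p = 1.75e-06), above the 1.72 to 7.70 CPM of the controls in both. SPP1 (-1.25) and SOX9 (-0.82) were lower. KRT19, the keratin of bile ducts, was at 8.85, 7.02, 0.936 and 0.537 CPM in line 1 and 229, 194, 210 and 108 CPM in line 2 (5.94, adjusted p = 0.000116), and EPCAM was at 9.86 to 18.3 CPM and 35.6 to 39.98 CPM (1.45). The markers of 1 cell type therefore differed in opposite directions between the lines.

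Adhesion and cytoskeleton genes were mixed. Of 19 epithelial junction genes 6 were higher and 3 lower, with CLDN2 at 3.77 and JUP at 0.69. Of 23 integrins, laminins and basement membrane genes 4 were higher and 5 lower. ITGB4, the integrin of hemidesmosomes, was at 1.81 to 6.44 CPM in line 1 and 10.4 to 31.2 CPM in line 2, while ITGA1 (-0.75) and NID1, a basement membrane linker (-0.71), were lower. LAMA5, a laminin chain, was at 94 to 151 CPM and 211 to 335 CPM (1.01). Of 20 formins and cytoskeleton regulators 3 were higher and 4 lower. Beside DIAPH2, the formins DIAPH1 (-0.61) and FMNL1 (-1.67) were lower, with DIAPH1 at 134 to 158 CPM in line 1 and 88 to 107 CPM in line 2.

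In TGF-beta responses and mesenchymal markers 3 of 16 were higher and 4 lower. TAGLN, an actin-binding protein of smooth muscle, was at 25.9 to 74.3 CPM in line 1 and 4.04 to 7.70 CPM in line 2 (-2.94), and LOXL2, a lysyl oxidase, at 0.565 to 2.50 CPM and 7.36 to 10.7 CPM (2.77).

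Genes under stable epigenetic control were called often and in both directions. Of 17 imprinted genes 6 were higher and 3 lower (35.3% and 17.6%, beside 15.6% and 14.6% of all genes tested). All 3 lower genes lay in chromosome runs that were lower as a whole, and 1 of the higher genes in a higher run (described with the chromosomes). PEG3, a maternally imprinted zinc finger gene, was at 0.383 to 0.876 CPM in line 1 and 8.31 to 11.3 CPM in line 2 (3.80), and PLAGL1 at 5.44 to 6.55 CPM and 23.5 to 28.5 CPM (2.20). NDN was higher (1.73) and PHLDA2 lower (-1.25). Of 32 HOX genes 9 were higher and 8 lower, with a median of -0.23. HOXB13 was at 8.26, 10.4, 4.97 and 6.02 CPM in line 1 and 0.0561 to 0.190 CPM in line 2 (-5.97, adjusted p = 1.05e-06), and HOXB8 was lower by -2.73. HOXC12 (3.31) and HOXD13 (2.51) were higher, so the clusters did not move as 1 block.

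Of 19 cancer-testis antigens, genes that the germ line and many tumours express, 8 were higher (42.1%) and 4 lower (21.1%). PAGE5 was at 34.7 to 44.6 CPM in line 1 and 2.59 to 4.63 CPM in line 2 (-3.65), and PASD1 at 7.88 to 16.7 CPM and 0.131 to 1.40 CPM (-4.10). MAGEA10 was at 30.4, 26.4, 12.8 and 11.3 CPM in line 1 and 110, 95.2, 99.9 and 68.3 CPM in line 2 (2.31), and PAGE1 (2.62) and MAGEC1 (2.48) were higher at lower levels. MAGE and PAGE genes have near-identical copies among which reads may be split. Of 18 genes of DNA methylation and Polycomb 4 were higher and 1 lower (7 and 2 with the replicate block, 7 and 1 without library 2 of the line 2 rescue). DNMT3A, which methylates new sites, was at 25.2 to 28.4 CPM and 49.0 to 54.4 CPM (0.93, adjusted p = 5.47e-05), and EZH2, the Polycomb methyltransferase, was lower (-0.62).

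Stress lists were called rarely. None of 11 heat shock genes was called by edgeR's test (0 at an unadjusted p under 0.05) or by DESeq2. Of 20 ATF4 response genes 1 was higher and 1 lower, of 16 p53 targets 1 and 2, of 16 NRF2 targets 1 and 2, and of 16 endoplasmic reticulum chaperones 0 and 2. These counts were 2 and 2, 2 and 3, 1 and 3, and 0 and 5 without that library. Of 8 clustered protocadherins none was called by edgeR (0 at an unadjusted p under 0.05) or DESeq2. Of 8 antigen presentation genes 1 was higher and 2 lower, with CD74 at -2.66, or 2 and 3 without library 2 of the line 2 rescue. Of 11 oncofetal genes 2 were higher and 3 lower (3 and 5 with the replicate block), with HMGA2 at 1.71 and GPC3 at -0.72.

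Markers of other cell types were low, with 1 exception. Of 10 fibroblast markers 7 were measured, 3 were higher and 1 lower, and their summed level was 4.90 to 7.23 CPM in line 1, 9.17 to 13.2 CPM in line 2 and 6.96 to 12.3 CPM in the controls. COL3A1 was at 2.12 to 4.36 CPM in line 2 and 0.0390 to 0.207 CPM in line 1, and LUM at 2.24 to 2.99 CPM and 0 to 0.351 CPM, while COL1A2, FAP and POSTN had at most 3 counts in all 8 libraries. Of 10 blood markers 5 had at most 3 counts in all 8 libraries, PTPRC, CD3E and MS4A1 among them. LYZ, a lysozyme that blood cells make, was at 328 to 740 CPM in line 1 and 267 to 397 CPM in line 2 and was not called. Of 9 endothelial markers found in the files, 5 had at most 3 counts in all 8 libraries, 3 were measured and 1 was higher (none without library 2 of the line 2 rescue), and the list summed to 0.396 to 1.24 CPM in line 1 and 0.458 to 1.13 CPM in line 2. Their part in the line difference was not tested.

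**Figure D2:**
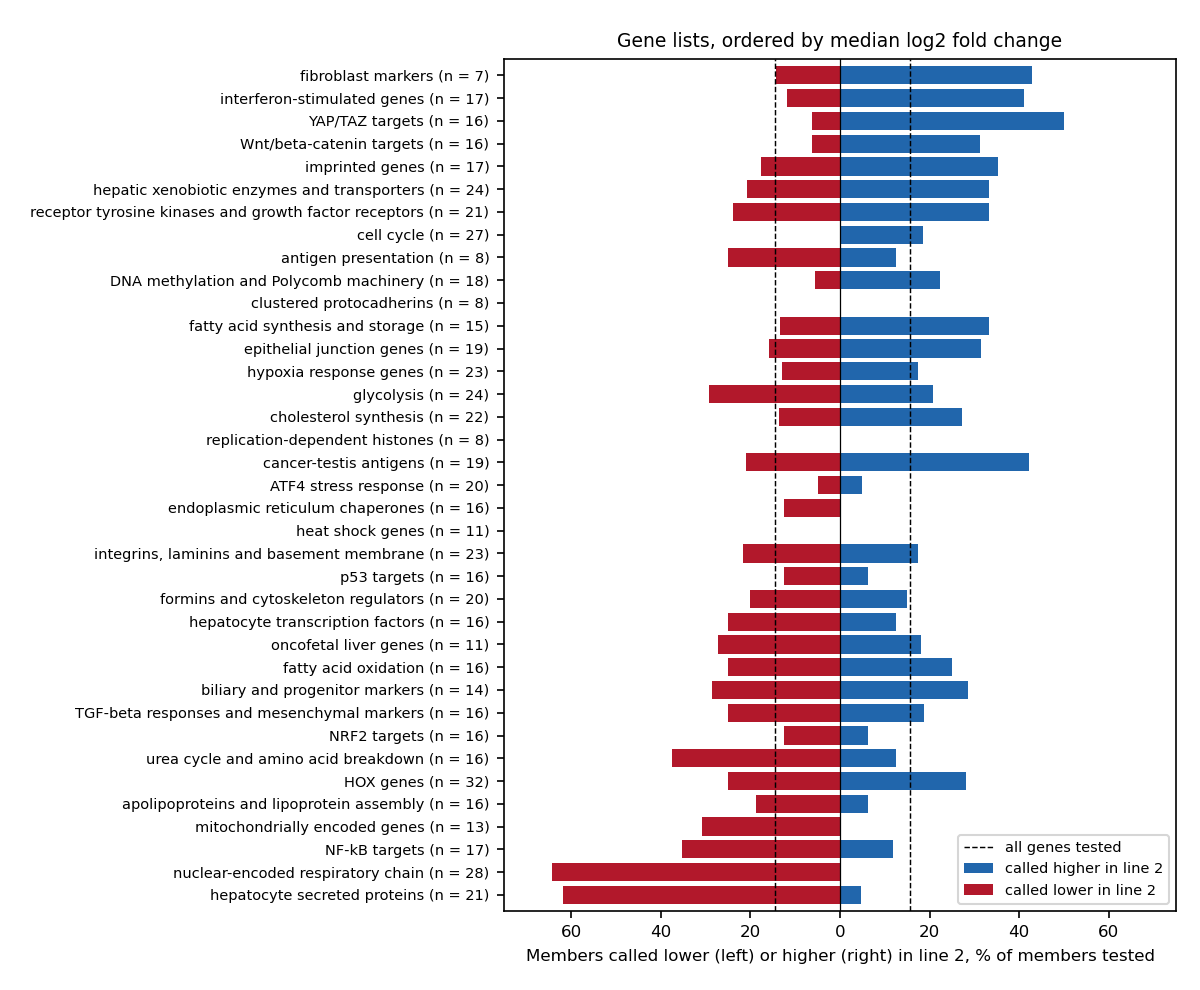
Share of measured members called lower (left) or higher (right) in line 2, in percent, for the lists with at least 7 members measured, in order of the median log2 fold change. Dashed lines mark the shares over all genes tested (14.6% lower and 15.6% higher); hepatocyte secreted proteins (61.9%) and the respiratory chain (64.3%) extend far to the lower side, and YAP/TAZ targets (50%) to the higher side.

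Called genes were spread unevenly over the chromosomes. On chromosome 8, 278 of 655 genes tested were higher in line 2 (42.4%) and 4.28% lower, with a median of 0.44. On the X chromosome 37.2% were higher (median 0.36). On chromosome 21, 39.7% were lower (median -0.43), on chromosome 3 31.9%, on chromosome 13 28.4% and on chromosome 11 26.4%. Chromosome 7 had 22.96% lower but a median of 0.037 over all its genes. In each of the 4 pairs of libraries the medians of chromosomes 8, 21 and X had the sign of the fit.

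To find where on a chromosome the genes moved together, tested genes were put in annotation order (GENCODE release 29) and cut into 370 windows of 50 genes. A median log2 fold change of at least 0.5 in size was found in 38 windows, 15 higher and 23 lower. Adjacent windows of 1 direction were joined to 17 runs, 7 higher and 10 lower, on 15 of 23 chromosomes, and are named by their first and, mostly, last gene. They held 10.5% of the genes in windows, 4.07% in higher runs and 6.40% in lower runs. Of the higher calls 15.1% lay in higher runs, and of the lower calls 24.2% lay in lower runs. The runs were picked by the fold changes of this same fit, so a surplus of calls in their own direction was built in. Outside the runs 14.5% of genes were called higher and 12.1% lower. Chromosome 21 had no run, since its window medians of -0.48 to -0.34 fell short of 0.5 in size. Of the 17 runs 10 reached the first or last window of their chromosome. Counted by window, 10 of the 46 first or last windows were past 0.5, beside 38 of all 370 windows.

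**Figure D3:**
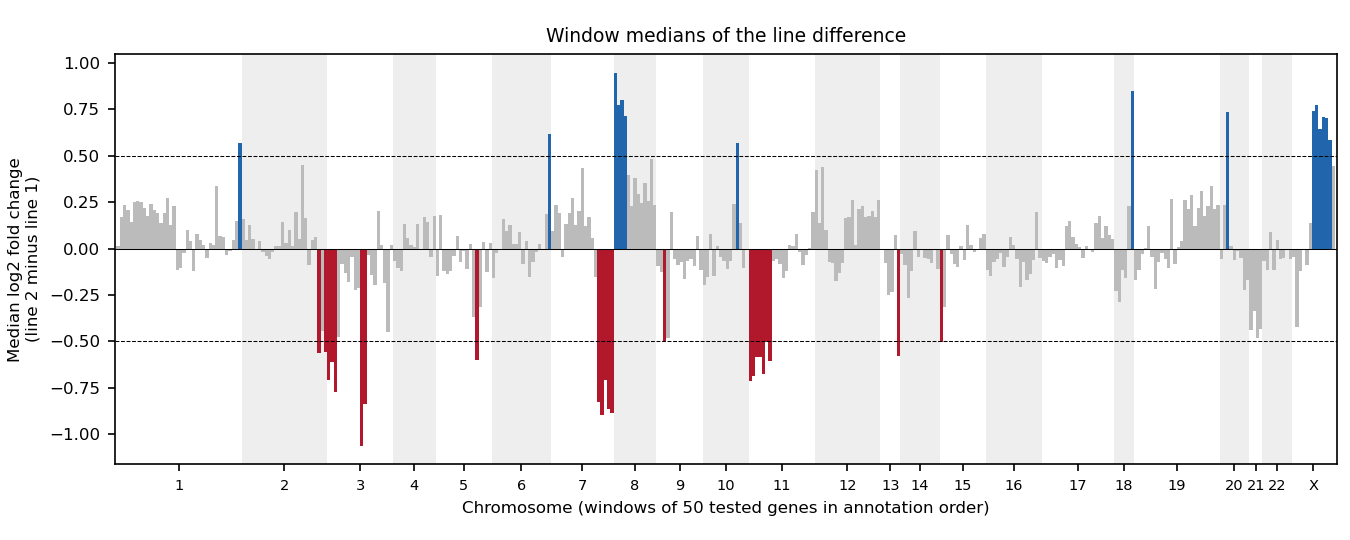
Median log2 fold change (line 2 minus line 1) of each of 370 windows of 50 tested genes, by chromosome; dashed lines mark 0.5 in either direction and coloured bars the 38 windows past it. Blocks of adjacent windows stand out at the start of chromosomes 8 (higher) and 11 and 3 (lower), at the end of chromosome 7 (lower) and along most of the second part of the X chromosome (higher).

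The largest runs differed in which line lay away from the controls. On chromosome 8, 200 genes from RPL23AP53 to ADAM32 had a median of 0.81, with 138 called higher and 2 lower. Relative to the control mean, on a scale of log2(CPM + 0.5) with the median of all genes tested set to 0 in each library, the median of these genes was -0.67 to -0.62 in line 1 and 0.010 to 0.043 in line 2, so line 1 was the line below the controls. NAT2, an arylamine acetyltransferase, was at 0.0975 to 0.415 CPM in line 1 and 7.47 to 14.9 CPM in line 2 (log2 fold change 5.64), and PSD3, an ARF exchange factor, was higher by 5.24.

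On chromosome 7, 258 genes from CAV2 to LINC00689 had a median of -0.86, with 171 called lower and 10 higher. Here both lines departed from the controls, line 1 upward (0.22 to 0.31) and line 2 downward (-0.39 to -0.33). CFTR and CTTNBP2 (-3.25) were the called genes with the smallest adjusted p, and IRF5 also lay in this run.

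On chromosome 11, 350 genes from LINC01001 to TNKS1BP1 had a median of -0.61, with 191 called lower and 18 higher. Line 1 was above the controls (0.42 to 0.45) and line 2 at their level (-0.053 to -0.016). ACP2, a lysosomal acid phosphatase, was at 118 to 134 CPM in line 1, 42.8 to 54.4 CPM in line 2 and 82.9 to 86.7 CPM in the controls (-1.39), and NCR3LG1, a ligand of natural killer cells, was lower by -3.57.

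Chromosome 3 held 2 lower runs, and a different line departed from the controls in each. In the run from IL5RA to CMTM8 (150 genes, median -0.70, 87 lower and 7 higher), line 1 was above the controls (0.51 to 0.58) and line 2 at their level (-0.004 to 0.024). In the run from RPS18P6, a pseudogene, to FAM162A (100 genes, median -0.94, 66 lower and 5 higher), line 1 was at the control level (-0.001 to 0.051) and line 2 below it (-0.83 to -0.70). OSBPL10, an oxysterol-binding family protein of the first run, was at 96.9 to 113 CPM in line 1, 24.1 to 30.3 CPM in line 2 and 6.25 to 10.6 CPM in the controls. TRNT1, which completes the ends of transfer RNAs, was at 37.1 to 44.3 CPM in line 1, 14.5 to 15.9 CPM in line 2 and 15.4 to 18.3 CPM in the controls. TIMMDC1, a complex I assembly factor in the second, was at 65.2 to 70.4 CPM in line 1, 27.1 to 30.4 CPM in line 2 and 64.9 to 69.0 CPM in the controls.

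On the X chromosome 300 genes from GJB1 to MAGEA4-AS1 had a median of 0.69, with 174 higher and 15 lower. Line 2 was above the controls (0.35 to 0.44) and line 1 near them (-0.11 to 0.008). The called genes with the smallest adjusted p in this run went against it: DIAPH2, and ARMCX1 at 14.4 to 17.6 CPM in line 1 and 1.38 to 1.68 CPM in line 2 (-3.50). On chromosome 18, 52 genes from PHLPP1 to PARD6G had a median of 0.85, with 36 higher and 1 lower, and line 1 was the line below the controls (-0.50 to -0.42). DOK6, an adaptor of receptor kinases, was at 0.195 to 0.536 CPM in line 1 and 9.55 to 21.7 CPM in line 2 there, and DSEL was higher by 3.67.

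The other runs held 50 to 81 genes each. Higher in line 2 were ends or parts of chromosome 1 (HEATR1 to PGBD2, median 0.57), 6 (TMEM242 to PDCD2, 0.62), 10 (NKX2-3 to GBF1, 0.57) and 20 (ZNF133 to MIR3193, 0.74). Lower were 2 runs of chromosome 2 (MIR26B to ACSL3, -0.56, and TIGD1 to LINC01881, -0.56) and runs of chromosomes 5 (TMCO6 to GRPEL2, -0.60), 9 (TRBV20OR9-2 to RGP1, -0.50), 13 (DNAJC3 to CHAMP1, -0.58) and 15 (from BMS1P15, -0.50). In the chromosome 10 run 98% of the genes had the sign of the median, the highest share of the 17, and in the chromosome 5 run 72%, the lowest. In the chromosome 9 run both lines were below the controls, line 1 by -0.27 to -0.20 and line 2 by -0.67 to -0.59.

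Named genes of these smaller runs had differences of about the size of their run or larger. IHH, the Indian hedgehog ligand in the first chromosome 2 run, was at 3.66 to 6.58 CPM in line 1 and 0.112 to 0.275 CPM in line 2 (-4.74). MLPH, a melanosome transport protein in the second, was lower by -1.60, UNC13B of chromosome 9 by -1.33, YIPF5 of chromosome 5 by -1.11 and TMCO3 of chromosome 13 by -1.07. SLC22A3, an organic cation transporter on chromosome 6, was higher by 1.999, DZANK1 of chromosome 20 by 1.58, CPN1, a carboxypeptidase of plasma on chromosome 10, by 1.43 and ZNF496 of chromosome 1 by 0.80. In the chromosome 15 run SNHG14 was lower (-0.71), while NDN in the same run was higher.

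Of 374 genes called higher past 3 on the log2 scale, 27 lay in a higher run (7.22%, beside 4.07% of all genes in windows). Of 207 called lower past 3, 28 lay in a lower run (13.5%, beside 6.40%). The runs were picked by these same fold changes, so shares above those of all genes are no separate finding. Of the 24 genes with the largest differences, 22 lay in no run (as did 89.5% of all genes in windows), IRF5 lay in one of its own direction and DIAPH2 in one of the other.

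**Figure D4:**
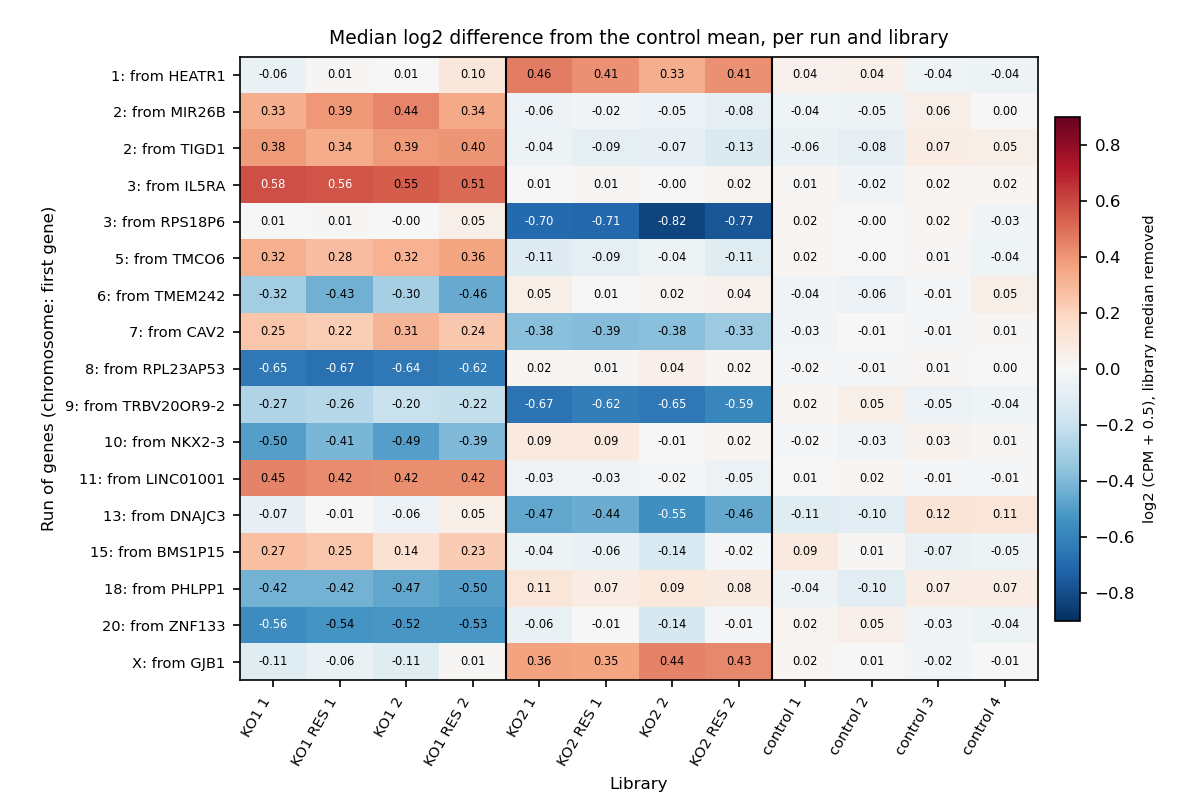
Median difference from the control mean, on the same log2(CPM + 0.5) scale, of the genes of each of the 17 runs (rows) in each of the 12 libraries (columns), with line 1, line 2 and the controls divided by vertical lines. The 4 libraries of a line are close to each other in every run, and the line that departs from the controls is line 1 on chromosome 8 (-0.67 to -0.62), line 2 in the second run of chromosome 3 (-0.83 to -0.70) and both on chromosome 7.

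Whether the line difference itself depended on HKDC1 state was tested by the interaction of line and state. In the edgeR fit without a block no gene passed (0% of 19766, with 727 at an unadjusted p under 0.05), while DESeq2 called 78 and edgeR with no filter on low counts 216. With the replicate number as a block, edgeR called 98 genes (0.496%), 88 of which had a larger value of line 2 minus line 1 in rescue than in knockout and 10 a smaller one. In that fit the numbers were treated as pairs because same-numbered libraries deviated together (correlations over genes of 0.223 to 0.480 between groups).

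The genes of this kind described here were chosen after their values were seen, and each had an adjusted p of 0.000819 for the interaction in the fit with the block. All 8 were lower in both rescue libraries than in both knockout libraries of line 1. CDH17, a cadherin of liver and intestine, was at 20.3 and 16.6 CPM in the knockout and 1.09 and 0.424 CPM in the rescue libraries of line 1, and at 14.4 and 15.9 CPM and 9.03 and 8.69 CPM in line 2. SYT13, a synaptotagmin, was at 14.9 and 15.3 CPM and 1.01 and 0.565 CPM in line 1, and between 1.01 and 1.55 CPM in line 2. KRT20, a keratin of gastrointestinal epithelium, was at 70.3 and 43.2 CPM and 10.3 and 9.69 CPM in line 1, while line 2 had 28.9 and 24.7 CPM and 27 and 19.1 CPM.

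For these 3 genes the lines overlapped over all 4 libraries. KRT19, CPE, NDRG1, NRCAM and SEMA3D were higher in line 2 in both states, and the gap widened in rescue. CPE, a carboxypeptidase that processes prohormones, was at 9.30 and 10.8 CPM and 2.83 and 3.70 CPM in line 1, while line 2 had 47.4, 58.1, 54.1 and 72.5 CPM. SEMA3D, a secreted guidance cue, was at 4.07 and 1.68 CPM and 0.410 and 0.396 CPM in line 1 and at 54.2 to 123 CPM in line 2. NDRG1, a hypoxia-responsive gene, was at 6.49 and 11.3 CPM and 1.09 and 2.54 CPM in line 1 and at 21.8 to 54.3 CPM in line 2.

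MTTP and CDC20B went the other way. MTTP was at 32.4 and 41.9 CPM in the knockout and 80.8 and 119 CPM in the rescue libraries of line 1, and at 52.1 and 72.0 CPM and 59.8 and 60.2 CPM in line 2 (interaction -1.45, adjusted p = 0.00619 with the block and 0.491 without it). CDC20B was at 2.38 and 3.33 CPM and 8.15 and 12.8 CPM in line 1, and between 7.19 and 9.82 CPM in line 2 (interaction -2.20, adjusted p = 0.00354 with the block). All state values follow the titles, which the genotype field contradicts in 4 libraries.

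**Figure D5:**
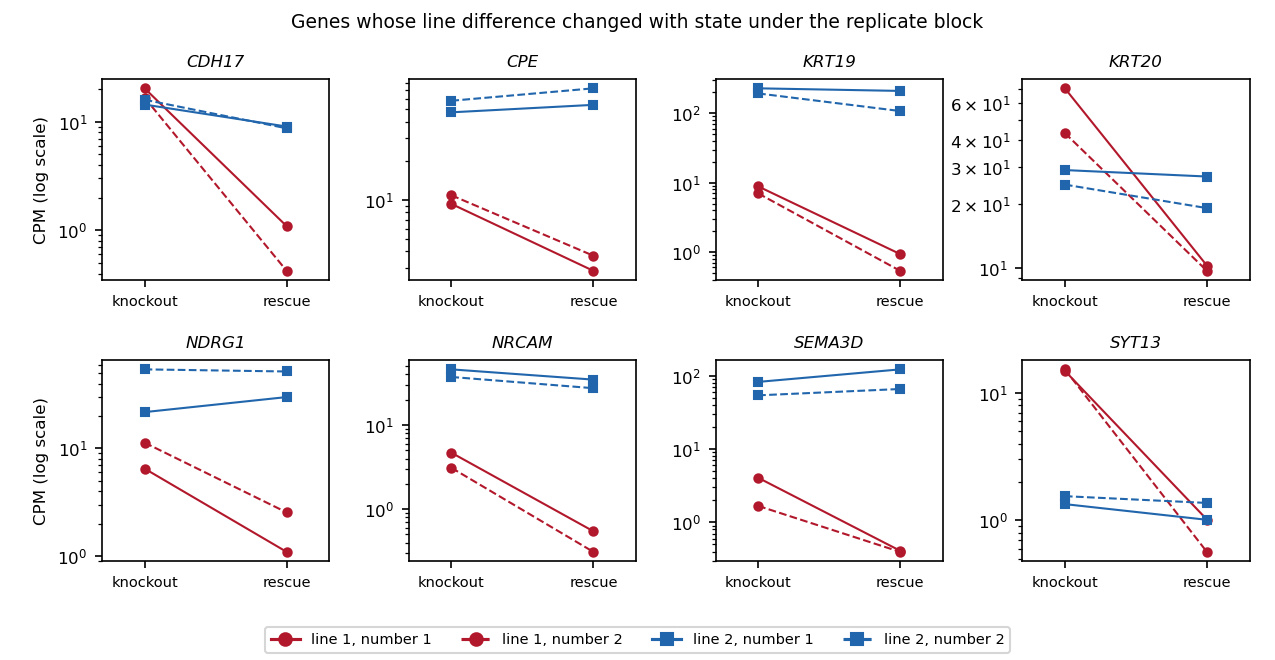
CPM (log scale) in the knockout and rescue libraries of line 1 (circles) and line 2 (squares) for 8 genes whose line difference depended on state with the replicate block; solid lines join the libraries with number 1 and dashed lines those with number 2. In line 1 every gene is lower in rescue, as CDH17 from 20.3 and 16.6 to 1.09 and 0.424 CPM, while in line 2 the levels of CDH17 were 14.4 and 15.9 CPM in knockout and 9.03 and 8.69 CPM in rescue.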

How the data were processed

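RNA from 12 samples was sequenced after a stranded mRNA preparation, per the labels' protocols. The authors deposited read counts per gene with 3 strand columns. Reads were aligned with STAR 2.6.0b and the build was GRCh37, per the submitters' processing notes. Column 4, which held about 20 times the reads of column 3 (19.8 to 21.1), was used. Rows that name no gene held 23.2% to 31.5% of reads and were left out. Genes were filtered by expression (filterByExpr), scaled by TMM and tested with edgeR 4.0.16 in R 4.3.3 (quasi-likelihood, state and line as terms, 5 residual degrees of freedom, Benjamini-Hochberg adjustment, calls under 0.05). DESeq2 1.42.0 was an alternative. Symbols came from reference lists matched by gene ID. Differences of library pairs used log2(CPM + 0.5).

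Named were HKDC1, APOB, ZNF704 and DIAPH2, the 12 largest rises and falls (called, at least 5 CPM on average in the higher line, lines not overlapping), from each list the called members of smallest adjusted p (at most 3), the end genes and 2 called genes per run, and 3 interaction genes per direction. Some genes this rule names are not reported here. Other genes were named after their values were seen. The comparison and lists were chosen with earlier results of these data known. Same-numbered libraries deviated together (correlations of 0.223 to 0.480 between groups). So the numbers were taken to pair libraries in the library pairs and in the fits with the block, from the data and not from the labels. The main test had no term for the number, so its SEs, adjusted p and calls do not account for this pairing. The test was tested on simulated data for line 2 against line 1 with 19232 genes. It called 38 and 46 of 50 genes set at -2 and 2 on the log2 scale, 29 of 50 at -1 and 29 of 50 at 1, and 6 of 19035 unchanged genes. The simulated libraries were drawn independently, without pairing by number or a library that stood apart. Far fewer genes were changed than were called in the data. So these counts do not give the error of the test on the data.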

Additional observations from a re-analysis of the deposited data

Results flagged for a closer look

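A library that stood apart from the other 3 of its line was looked for in 352 groups of 4 (each named gene in each line) and found in 10 (2.84%), where chance gives about 1 in 20. Library 2 of the line 2 rescue accounted for 5 of them. In it KRT18 was at 1117 CPM beside 1628 to 1713 CPM, CCNE2 at 11.9 CPM beside 19.5 to 21.1 CPM, CYP2E1 at 2.13 CPM beside 0.752 to 0.953 CPM, ROR1 at 6.03 CPM beside 4.36 to 4.54 CPM and DOK6 at 21.7 CPM beside 9.55 to 11.1 CPM. SLC2A3 was at 31.6 CPM in line 1 rescue library 2 beside 39.99 to 41.35 CPM, and PLAGL1 at 23.5 CPM in line 2 knockout library 2 beside 27.7 to 28.5 CPM. The last 3 rest on at most 5 counts a library: PTGR1 at 0 CPM in line 2 rescue library 1, SLC35F3 at 0.0797 CPM in line 1 knockout library 1 and TMEM52B at 0.0233 CPM in line 1 knockout library 2.

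The line difference changed with state in the fit with the replicate block for the 10 genes described for it, and also at other named genes such as OAS1. On the log2 scale, rescue minus knockout, the change was 3.76 for CDH17, 1.88 for CPE, 2.94 for KRT19, 2.23 for KRT20, 2.53 for NDRG1, 2.72 for NRCAM, 3.27 for SEMA3D and 3.92 for SYT13. It was -1.45 for MTTP and -2.20 for CDC20B. Without the block, edgeR called none of the 10, DESeq2 called 9, and edgeR with no filter on low counts called all 10. With 1 library left out and no block, edgeR called 2 of them without line 2 rescue library 1 (CDH17 and SYT13) and 1 without line 2 rescue library 2 (KRT19).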

How the results depend on the processing

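The count of 5961 called genes became 8248 with the replicate block, which kept all 5961 with their sign, and 6754 with DESeq2. It was 3858 in the knockout libraries only, 1769 in the rescue libraries only, 2699 in libraries whose title and genotype field agree, and 1145 when tested against a log2 fold change of 1, where 64.4% were higher rather than 51.8%. The first 3 of these fits have fewer libraries, and in the third the state and the number cannot be told apart. With 1 library left out the count ran from 4415 to 6680. The interaction of line and state gave 0 calls, 98 with the replicate block, 78 with DESeq2, 216 with no filter on low counts, and 0 to 8 with 1 library left out. HKDC1 was -1.30 (adjusted p = 0.308) with state from the genotype field and -1.30 (adjusted p = 0.325) with no state covariate, and -1.45 to -1.08 with 1 library left out. In the knockout libraries only, MTTP was at 0.73 (adjusted p = 0.0246) and KRT20 at -1.09 (adjusted p = 0.00773), both reversed. The share of genes in runs was 10.5%, 17.0% with no filter, and 10.2% to 11.8% with 1 library left out. The causes were not tested. Of 164 called genes named, 116 stayed called with their sign in every alternative. The replicate block and DESeq2 lost none, and 37 lost the call in the rescue libraries only. Beside the lists and the interaction given in the report, the block changed no call of a named gene from called to not called. Of 817 list medians under the alternatives 48 changed sign, and of 357 run medians none did.

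Each line has 4 libraries, 2 per state, and the labels do not say whether these are separate cultures. A line effect cannot be told apart from any handling that differed between the lines. A count of 3 corresponds to 0.0407 to 0.0848 CPM, so genes at the floor are given as bounds, which cover counting error only.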
